A study of Mus musculus with 6 samples.

Results

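Immortalized mouse embryonic fibroblasts that lack Kdm5a received wild-type KDM5A, the catalytic mutant KDM5A-H483A, or an empty vector (EV), and the arrays with either KDM5A form were set as 1 group against the empty vector arrays. All 6 arrays of the series entered: 2 with wild-type KDM5A, 2 with KDM5A-H483A and 2 with empty vector, with the replicate number as a block. Every group shared the KDM5A-/- genotype, a mixed strain background and subconfluent growth in medium with fetal bovine serum. The genes described are those whose 4 KDM5A arrays all lay on 1 side of both empty vector arrays, called separated here. They numbered 1838 of 18194 genes. Values are log2 RMA levels, in which 1 unit is a doubling, and each gene is represented by its brightest probe set. The sources used here do not say whether the cultures were clones, how they were made, how much protein they held or whether the 2 arrays of a group came from separately derived cultures. P-values therefore measure no more than the spread among the 6 arrays.

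KDM5A, also known as JARID1A or RBP2, removes methyl groups from lysine 4 of histone H3, a mark of active promoters. Its JmjC domain holds the iron needed for this reaction, and the histidine replaced in the H483A form belongs to that catalytic domain. The protein also has domains that bind DNA and histone tails, it was first found as a partner of the retinoblastoma protein, and it is found with SIN3 and histone deacetylase complexes. A comparison that pools both forms therefore asks which transcripts differed with either protein present, whatever its catalytic state.

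The arrays fitted their label as fibroblasts. The fibroblast markers Col1a1, Col1a2, S100a4 and Vim ranked above the 99th percentile of all genes, while Dcn and Lum lay at 73.2 and 42.2. The median of the 10 fibroblast markers lay at the 91.7th percentile. Their mean level was 9.38 to 9.70 in the empty vector arrays and 9.04 to 9.95 in the KDM5A arrays. Smooth muscle markers, which cultured fibroblasts also express, were bright as well, at a median percentile of 94.35, with mean levels of 9.12 to 9.15 in the empty vector arrays and 9.01 to 9.30 in the KDM5A arrays. Myh11 of this list was weak, at percentile 18.4. The other marker lists were weaker as a whole, with a median percentile of 19.3 for 6 endothelial, 19.6 for 6 epithelial, 32.4 for 7 macrophage, 41.2 for 5 skeletal muscle, 46.4 for 6 neural and 7.35 for 4 pluripotent markers. The 2 measured adipocyte markers had a median percentile of 33.3. The defining genes Pecam1, Cdh1, Ptprc and Nanog lay at percentiles 12.8, 3.2, 5.7 and 9.4, but single members stood higher, among them the neural Nes at 85.7 and Map2 at 82, the endothelial Kdr at 65 and the macrophage Csf1r at 61. The mean level of the 7 macrophage markers was 4.51 to 4.62 in the empty vector arrays and 4.51 to 4.67 in the KDM5A arrays. Kdm5a itself read 5.89 and 5.83 in the control arrays, 5.96 and 5.83 under the wild-type form and 6.11 and 5.89 under the H483A form, a pooled log2 difference of 0.09 (95% CI -0.17 to 0.34). The sources used here do not place its probes relative to the deletion or the introduced sequence, so this value checks neither. In whole-culture RNA, fewer cells with a transcript and less of it per cell cannot be told apart.

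With either KDM5A form, the fibroblasts had higher signals for the matrix protein gene Npnt, the neuritin gene Nrn1, the cyclin gene Ccnd1 and the guidance factor gene Sema3c, and lower signals for the G protein regulator gene Rgs4, the matricellular gene Ccn4 and the monooxygenase gene Moxd1. None of these differences passed the test across all genes. Limma called 0 of 18194 genes (0%) at an adjusted p of 0.05, and the smallest adjusted p was 0.656, shared by Npnt and Mycn. Before adjustment, 310 genes (1.7%) on the higher side and 230 (1.26%) on the lower had p below 0.05. These 540 genes are a smaller share of all 18194 than the 0.05 expected at this threshold without any effect. All 4 KDM5A arrays lay above both empty vector arrays for 901 genes (4.95%) and below both for 937 (5.15%), 10.1% in all, and these shares are the background for every count of separated genes below. Arbitrary groupings of 4 against 2 arrays also separate genes, since every gene without tied values is separated under some of them. Averaged over all such groupings, the share of separated genes is larger than 10.1%, so the count itself is no evidence of a response. Most of these gaps were narrow. The distance between the nearest KDM5A array and the nearest empty vector array had a median of 0.05 log2 units on the higher side and 0.04 on the lower. It reached 0.2 for 52 genes on the higher side and 33 on the lower, and 0.5 for only 3 on each side. The rule selects genes with close empty vector arrays as well as distant KDM5A arrays: the absolute difference between the 2 empty vector arrays had a median of 0.07 among separated genes and 0.13 over all genes. At the border of the rule, 268 genes were separated by less than 0.01 and 308 missed it by less than 0.01. Ccna2, a cyclin of S phase and mitosis, was just inside, with 9.23 to 9.46 in the KDM5A arrays against 9.49 and 9.47, while the histone-binding gene Rbbp7 was just outside, at 10.81 to 10.96 against 11.03 and 10.96.

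Npnt, the gene of nephronectin, a basement membrane ligand of integrin alpha8 beta1, had the widest gap on the higher side. Npnt read 5.48 and 5.47 in the control arrays, 6.61 and 6.70 under the wild-type form and 6.31 and 6.51 under the H483A form. The 4 KDM5A arrays lay at least 0.83 above both controls, a 2.09-fold difference (log2 difference 1.06, SE 0.13, 95% CI 0.75 to 1.37, limma adjusted p = 0.656). Nrn1, which encodes a membrane-anchored protein that promotes neurite growth, stood at 7.61 and 7.49 (controls), 8.60 and 8.58 (wild-type form) and 8.27 and 9.17 (H483A form) (log2 difference 1.10, SE 0.21, 95% CI 0.61 to 1.60). The second KDM5A-H483A array was the highest for Nrn1, and the groups did not overlap. Sema3c, a secreted semaphorin that guides migrating cells, stood at 7.14 and 7.38 (controls), 8.07 and 8.21 (wild-type form) and 8.32 and 7.83 (H483A form) (log2 difference 0.85, SE 0.16, 95% CI 0.46 to 1.23). The chemokine gene Ppbp stood at 6.85 and 7.03 (controls), 7.66 and 7.66 (wild-type form) and 7.78 and 7.54 (H483A form) (log2 difference 0.72, SE 0.12, 95% CI 0.44 to 1.01). Ppbp had nearly the same level in all 4 KDM5A arrays, with a mean of 7.66 ± 0.10 (SD, n = 4) against 6.94 ± 0.13 (SD, n = 2). The water channel gene Aqp1 stood at 7.81 and 7.42 (controls), 8.46 and 8.38 (wild-type form) and 8.28 and 8.46 (H483A form) (log2 difference 0.78, SE 0.14, 95% CI 0.46 to 1.10). The limma adjusted p of Nrn1, Sema3c, Ppbp and Aqp1 was 1.

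Ccnd1 encodes cyclin D1, the partner of CDK4 and CDK6 that inactivates the retinoblastoma protein. It stood at 10.02 and 9.98 with empty vector and at 10.51 and 10.44 (wild-type form) and 10.54 and 10.72 (H483A form) with KDM5A, a 1.46-fold difference (log2 difference 0.55, SE 0.12, 95% CI 0.27 to 0.83, limma adjusted p = 1). The control arrays of Ccnd1 differed from each other by far less than this. Ecm1, a secreted matrix glycoprotein gene, stood at 8.20 to 8.29 in the KDM5A arrays against 7.82 and 7.68, and Osbpl5, a lipid transfer protein gene, at 5.94 to 6.02 against 5.51 and 5.53. The sulfotransferase gene Chst1 stood at 7.27 to 7.82 against 6.84 and 6.89, and Lgals3, which encodes the sugar-binding galectin-3, at 9.70 to 10.67 against 9.30 and 9.35. For both Chst1 and Lgals3 the replicate 2 arrays were the higher ones within each form. Manba, a lysosomal mannosidase gene, stood at 5.90 to 6.42 against 5.57 and 5.54, and S100a4, a calcium-binding protein gene used as a fibroblast marker, at 11.52 to 12.10 against 11.19 and 11.21. Aldh1a7, an aldehyde dehydrogenase gene, was among the 5 smallest p on this side (log2 difference 1.03, SE 0.18, 95% CI 0.61 to 1.46), at 5.03 and 6.37 (wild-type form) and 5.22 and 6.24 (H483A form) against 4.48 and 4.89. Its log2 difference was 0.65 without the second empty vector array, and that of Lgals3 was then 0.43. It has a close relative in Aldh1a1, so its probes may not tell these transcripts apart.

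**Figure D1:**
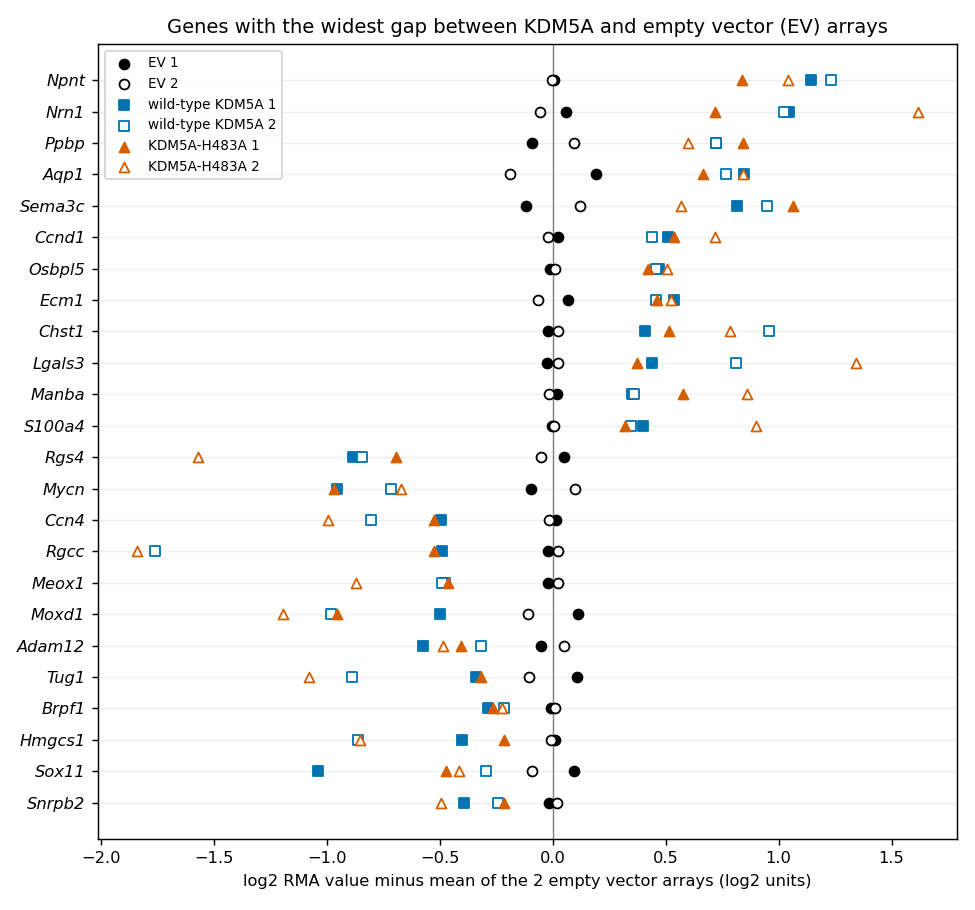
Log2 RMA value of each array minus the mean of the 2 empty vector arrays (x axis, log2 units) for the 12 genes with the widest gap in each direction among genes at or above the median level; circles are empty vector, squares wild-type KDM5A and triangles KDM5A-H483A arrays, filled for replicate 1 and open for replicate 2. The KDM5A symbols lie on 1 side of both circles in every row because the genes were chosen so, and for Rgcc, Tug1 and Lgals3 the open symbols lie farther out than the filled ones.

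On the lower side, Rgs4 had the widest gap. It encodes a GTPase-activating protein that shortens signalling by G protein alpha subunits. Rgs4 read 7.23 and 7.12 in the control arrays, 6.29 and 6.33 under the wild-type form and 6.48 and 5.60 under the H483A form, a 2.00-fold lower level (log2 difference -1.0, SE 0.21, 95% CI -1.48 to -0.52, limma adjusted p = 1). The second KDM5A-H483A array was the lowest. Mycn, a MYC family transcription factor gene, stood at 12.44 and 12.63 (controls), 11.58 and 11.82 (wild-type form) and 11.57 and 11.86 (H483A form), 1.78-fold lower (log2 difference -0.83, SE 0.10, 95% CI -1.07 to -0.59, limma adjusted p = 0.656). Ccn4, a matricellular protein gene known as a Wnt target, stood at 9.0 and 8.97 (controls), 8.48 and 8.17 (wild-type form) and 8.45 and 7.99 (H483A form) (log2 difference -0.71, SE 0.13, 95% CI -1.01 to -0.41), with the replicate 2 arrays the lower ones. Moxd1, a copper-dependent monooxygenase gene, stood at 8.17 and 7.95 (controls), 7.56 and 7.08 (wild-type form) and 7.11 and 6.87 (H483A form) (log2 difference -0.91, SE 0.15, 95% CI -1.27 to -0.55). Rgcc, a regulator of the cell cycle and of fibroblast activation, had the largest mean difference of these 12 genes. It stood at 6.81 and 6.85 (controls), 6.34 and 5.07 (wild-type form) and 6.30 and 4.99 (H483A form) (log2 difference -1.16, SE 0.27, 95% CI -1.78 to -0.53). The difference for Rgcc was -0.49 within replicate 1 and -1.82 within replicate 2, which are also its values without the second and without the first empty vector array.

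Meox1, a homeobox factor of the somites, stood at 6.41 to 6.82 in the KDM5A arrays against 7.26 and 7.31, and Sox11, a factor of embryonic progenitors, at 8.57 to 9.31 against 9.70 and 9.51. Adam12, a membrane metalloprotease gene, stood at 6.73 to 6.98 against 7.25 and 7.35, and Brpf1, a scaffold of histone acetyltransferase complexes, at 7.16 to 7.23 against 7.43 and 7.45. The KDM5A arrays of Brpf1 spanned less than 0.1 log2 units. Snrpb2, a component of the spliceosome, stood at 9.48 to 9.76 against 9.96 and 10.00, and the noncoding RNA gene Tug1 at 9.44 to 10.20 against 10.62 and 10.41. For Sox11 the log2 difference of -0.56 was -0.26 without the first and -0.85 without the second empty vector array, and for Tug1 that of -0.66 was -0.43 without the second. Hmgcs1, an early enzyme of cholesterol synthesis, stood at 9.37 to 10.02 against 10.24 and 10.22. Below the median level, Chodl, a membrane lectin gene, stood at 4.47 to 4.88 against 5.46 and 5.58 (log2 difference -0.82, SE 0.14, 95% CI -1.15 to -0.49), while Fgf9, which encodes a growth factor, read 4.28 to 4.76 against 5.21 and 5.40 (log2 difference -0.83, SE 0.15, 95% CI -1.19 to -0.47). Such weak signals may lie near background, for which the deposited values give no measure. Tenm3, a teneurin adhesion protein gene, had one of the 5 smallest p on the lower side although its groups overlapped: it stood at 5.43 and 4.49 (wild-type form) and 5.17 and 4.51 (H483A form) against 6.04 and 5.14, and the difference was -0.74 within replicate 1 and -0.64 within replicate 2.

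Promoters of 4 of these genes are shown. Npnt and Rgs4 had the widest gap on either side at or above the median level, Mycn shared the smallest adjusted p with Npnt, and Sema3c was picked by hand from the 12 widest gaps on the higher side, so the 4 windows are no sample of the separated genes. They are shown because KDM5A is recruited to DNA in part through its ARID domain, which is known to bind the motif CCGCCC. The sequences are from RefSeq (GRCm38.p6), from 250 bases before to 50 after the most upstream start listed, 5′ to 3′ on the strand of the gene, with CCGCCC or its reverse complement GGGCGG in capitals. The motif is also the core of the GC box bound by SP1, so a match does not tell the proteins apart. The intervals are chr3:132950242-132950541 on the minus strand for Npnt, chr5:17574566-17574865 on the plus strand for Sema3c, chr12:12941787-12942086 on the minus strand for Mycn and chr1:169747593-169747892 on the minus strand for Rgs4.
Npnt: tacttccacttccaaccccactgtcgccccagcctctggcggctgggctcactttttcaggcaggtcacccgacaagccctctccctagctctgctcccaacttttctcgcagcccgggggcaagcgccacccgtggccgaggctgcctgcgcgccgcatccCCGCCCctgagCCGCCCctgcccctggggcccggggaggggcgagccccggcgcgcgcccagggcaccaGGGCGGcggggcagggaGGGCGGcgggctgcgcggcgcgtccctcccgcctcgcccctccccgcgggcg
Sema3c: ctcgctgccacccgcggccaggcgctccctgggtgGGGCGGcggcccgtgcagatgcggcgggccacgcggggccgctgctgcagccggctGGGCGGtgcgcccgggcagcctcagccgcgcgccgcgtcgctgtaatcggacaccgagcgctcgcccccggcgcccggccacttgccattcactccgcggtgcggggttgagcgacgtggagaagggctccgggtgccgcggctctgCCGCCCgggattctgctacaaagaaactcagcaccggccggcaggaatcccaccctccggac
Mycn: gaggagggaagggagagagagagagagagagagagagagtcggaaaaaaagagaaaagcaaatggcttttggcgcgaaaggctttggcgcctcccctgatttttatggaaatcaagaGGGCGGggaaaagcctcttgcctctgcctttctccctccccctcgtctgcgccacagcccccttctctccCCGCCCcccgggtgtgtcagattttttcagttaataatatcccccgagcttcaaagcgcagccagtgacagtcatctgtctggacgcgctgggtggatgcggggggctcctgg
Rgs4: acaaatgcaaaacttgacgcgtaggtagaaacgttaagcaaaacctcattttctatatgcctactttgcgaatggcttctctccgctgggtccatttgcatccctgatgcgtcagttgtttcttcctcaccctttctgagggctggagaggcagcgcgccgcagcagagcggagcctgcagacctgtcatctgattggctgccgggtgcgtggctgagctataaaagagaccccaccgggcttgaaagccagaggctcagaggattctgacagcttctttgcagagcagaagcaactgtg

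The Npnt window held 4 matches and was 76.7% G and C, the Sema3c window 3 matches at 75.7%, the Mycn window 2 at 56.7% and the Rgs4 window 0 at 53%. Of all 32851 promoter windows of this length, 35.7% held the motif on either strand. A promoter entry was found for 63 of the 79 named genes. Among measured genes at or above the median level with an entry, the motif was present in at least 1 listed window for 71.6% of 7421 genes. It was present for 77.1% of the 455 such genes with all 4 KDM5A arrays above and for 61.0% of the 210 with all 4 below. These shares count genes with a match in any listed window, so they are not comparable with the 35.7% of single windows. G and C content was taken from the listed window of each gene that was richest in them. Its median differed in the same order, at 62.7%, 63.3% and 59.5% in that order, and its part in the motif shares was not tested.

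Whether the forms differed was measured for the same genes. The difference between KDM5A-H483A and wild-type KDM5A, from a fit with 3 group means and the replicate block, was -0.25 (95% CI -0.56 to 0.07) log2 units for Npnt, 0.13 (95% CI -0.47 to 0.73) for Nrn1 and 0.15 (95% CI -0.17 to 0.48) for Ccnd1. It was 0.00 (95% CI -0.36 to 0.36) for Ppbp, 0.01 (95% CI -0.29 to 0.32) for Mycn and -0.27 (95% CI -0.81 to 0.28) for Rgs4. These intervals are wide: the estimate lay a median of 0.35 from either end over all genes, so a smaller difference between the forms could not be seen for a typical gene. Among the named separated genes, 5 had an unadjusted interval that left out 0, each with a limma adjusted p of 0.795. Retsat, a retinol saturase gene, stood at 5.0 and 4.94 for the wild-type form and 5.43 and 5.68 for the H483A form, against 4.78 and 4.68, a difference of 0.58 (95% CI 0.23 to 0.93). Rdh11, a retinal reductase gene, stood at 7.13 and 6.91 (wild-type form) and 7.52 and 7.62 (H483A form) against 7.66 and 7.66, a difference of 0.54 (95% CI 0.21 to 0.88), so that the mutant arrays lay close to empty vector. Rgs5, another regulator of G protein signalling, stood at 5.38 and 4.99 (wild-type form) and 4.85 and 4.65 (H483A form) against 5.62 and 5.57, a difference of -0.44 (95% CI -0.77 to -0.10), and the forms differed by 0.36 (95% CI 0.02 to 0.70) for Manba and -0.33 (95% CI -0.67 to -0.00) for Moxd1. Limma called 0 of 18194 genes (0%) between the forms, with a smallest adjusted p of 0.795 and 922 genes at an unadjusted p under 0.05, of which 23 were separated genes. The rule keeps genes whose 4 KDM5A arrays lie together, so a small difference between forms among them is partly its own product. Its median absolute size was 0.08 in separated genes and 0.13 over all genes. A response shared by both forms is thus a description of these array values, and whether any of it is independent of catalysis was not tested.

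**Figure D2:**
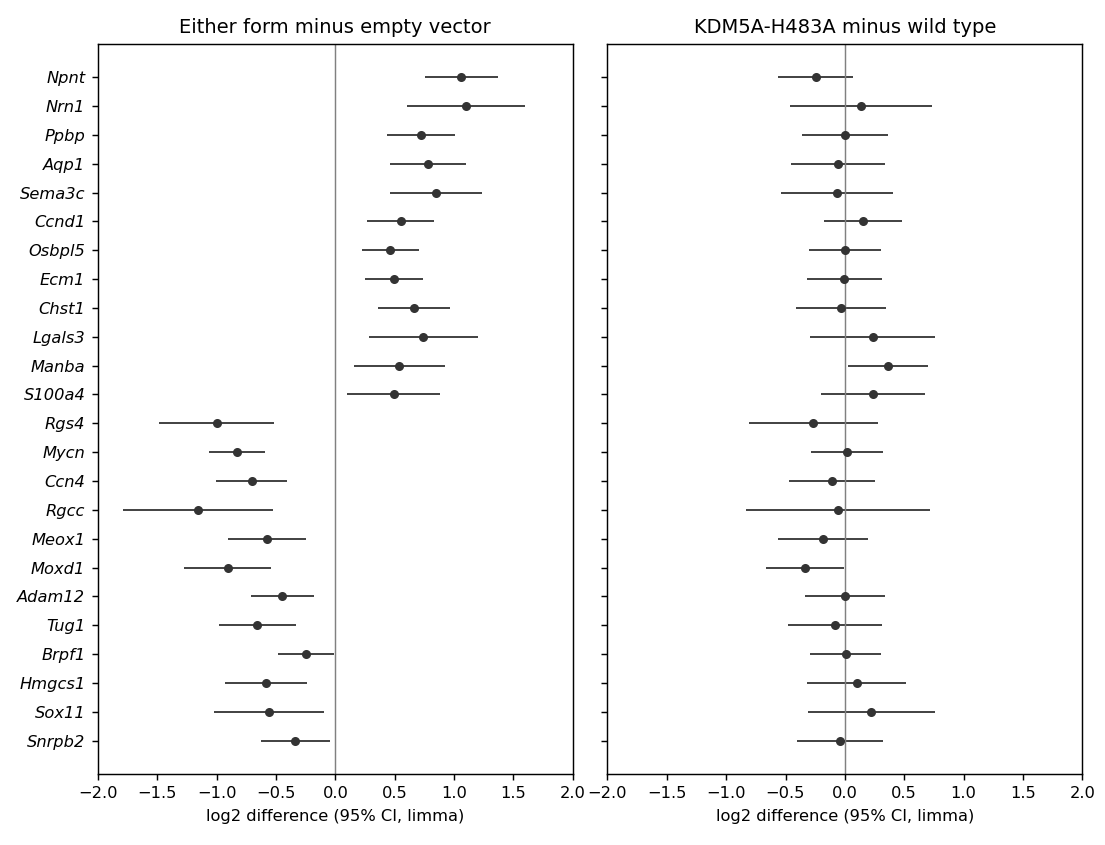
Log2 difference with its limma 95% confidence interval (x axes, log2 units) for the 12 genes with the widest gap in each direction, as either KDM5A form minus empty vector (left) and as KDM5A-H483A minus wild type (right). The unadjusted intervals on the left leave out 0 for these genes, which were chosen from the same arrays, and those on the right include 0 except for Manba and Moxd1.

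Other probe sets of the same genes, which the choice of the brightest probe set left out, were read on the same RNA and are not further samples. Ccnd1 was separated in all 3 of its probe sets, with the other 2 at 8.56 and 8.58, and 8.55 and 8.68, in the empty vector arrays and at 8.96 to 9.51 in the KDM5A arrays. Their log2 differences were 0.63 and 0.60. Ccng1, the gene of the p53-induced cyclin G1, was likewise separated in all 3, with log2 differences of 0.39, 0.35 and 0.66. Adam12 and Ccn4 had 1 other probe set each, with log2 differences of -0.55 and -0.56, and both were separated. The inhibitor gene of metalloproteinases Timp2 was separated in 4 of 6 probe sets, with log2 differences between -0.22 and 0.50 over all 6.

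For other genes the probe sets differed in size or direction. The brightest Mycn probe set lay near 12, while the other 2 stood between 3.44 and 4.10 in all arrays, with log2 differences of 0.02 and -0.04. The Mycn value therefore rests on 1 probe set. For Npnt, another probe set read 5.02 and 5.26 in the controls and 6.24 to 6.84 in the KDM5A arrays, a log2 difference of 1.43, and was separated as well. The remaining 3 had log2 differences of 0.44, 0.22 and 0.02. Of these the one at 0.22 was separated above, and the one at 0.02 had a weak signal. Rgs4 had log2 differences of -0.39 and -0.06 in its others. The first was separated below as well, at 5.45 to 5.74 against 6.08 and 5.98, and the last had a weak signal. The other 2 Tug1 probe sets had log2 differences of 0.15 and 0.10, opposite to the brightest one. The second Fgf9 probe set read 4.52 and 4.60 in the controls and 4.50 to 4.75 in the KDM5A arrays, with overlapping groups and a log2 difference of 0.07. With all probe sets averaged, the log2 difference was 0.63 for Npnt, -0.38 for Fgf9, -0.28 for Mycn, -0.48 for Rgs4, -0.70 for Rgcc, -0.14 for Tug1, -0.33 for Sox11, -0.10 for Snrpb2, 0.26 for Retsat, -0.21 for Rdh11 and -0.28 for Rgs5. In all, 35 of the 79 named genes moved by over 1.5 times under that setting. Over all separated genes with other probe sets at or above the median level of all probe sets, leaving out probe sets that can cross-hybridize, 74.8% of 301 probe sets on the higher side and 59.0% of 212 on the lower had the direction of the brightest one. They were separated the same way in 17.9% and 8.02% of cases and the opposite way in 2.99% and 4.72%.

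**Figure D3:**
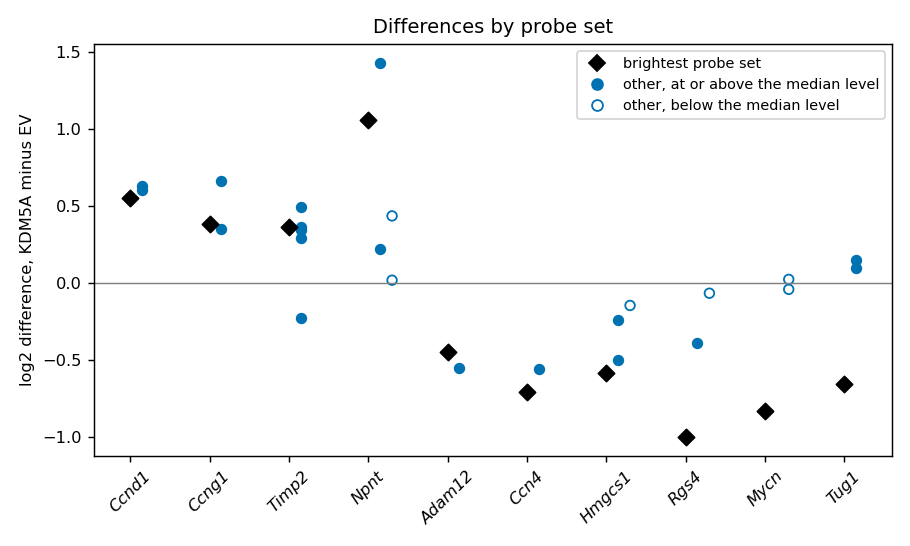
Log2 difference of either KDM5A form against empty vector (y axis, log2 units) in each probe set of 10 genes chosen to show agreement and disagreement, with probe sets that can cross-hybridize left out; diamonds are the brightest probe set, filled circles others at or above the median level of all probe sets and open circles weaker ones. The probe sets of Ccnd1 lie together near 0.6, whereas those of Mycn and Tug1 do not share the value of the brightest one.

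The direction of separation varied with signal level. Among genes at or above the median level, 542 of 9097 (5.96%) had all 4 KDM5A arrays above and 262 (2.88%) had all 4 below, so 67.4% of separated genes there were on the higher side. Below the median level the counts were 359 above and 675 below. In the brightest quartile of genes the shares were 5.61% above and 2.09% below, and in the weakest 4.02% and 7.87%. The median difference was 0.04 log2 units in the brightest and -0.02 in the weakest quartile. The part of array processing in this split was not tested. For a list of bright genes, the shares of 5.96% and 2.88% are the nearer background.

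**Figure D4:**
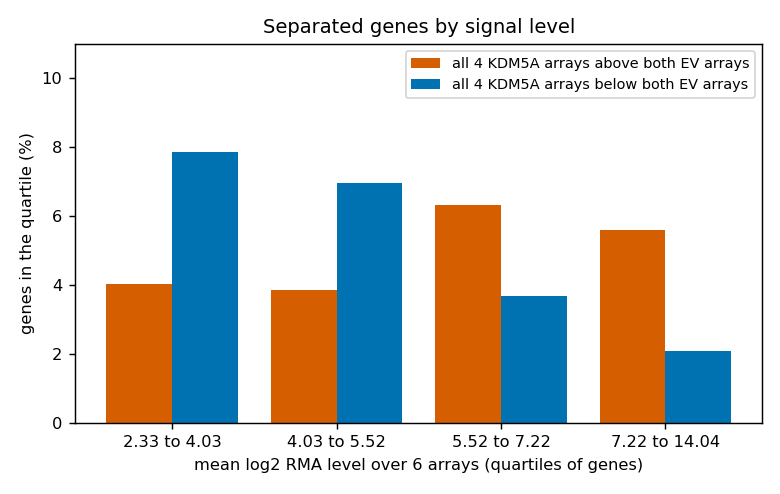
Share of genes (y axis, percent) with all 4 KDM5A arrays above both empty vector (EV) arrays or below both, in quartiles of the mean log2 RMA level over the 6 arrays (x axis). Shares below dominate in the weaker quartiles, at 7.87% in the weakest, and shares above in the brighter ones, at 5.61% in the brightest.

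Lysosome and autophagy genes had 8 of 33 measured members above both controls and 0 below, with 0 called. Their median log2 difference was 0.21, beside 0.00 over all genes, and 28 of 33 lay above 0. The median was 0.13 with probe sets averaged, where 8 stood above and 0 below as well. The separated members were Manba, the galactosidase genes Glb1 and Gla, the cathepsin gene Ctsb, the calcium channel gene Mcoln1, the proton pump subunit gene Atp6v0d1 and the autophagosome genes Gabarap and Map1lc3b. Glb1 stood at 6.61 and 6.39 for the wild-type form and 6.27 and 6.89 for the H483A form against 6.01 and 6.05 (log2 difference 0.51, 95% CI 0.11 to 0.91). Ctsb stood at 10.68 and 10.33 (wild-type form) and 10.54 and 10.46 (H483A form) against 10.12 and 10.12 (log2 difference 0.38, 95% CI 0.11 to 0.65). The list median was 0.26 within replicate 1 and 0.16 within replicate 2, on the same side in both. By array it was 0.35 and 0.04 above the control mean for the wild-type form and 0.13 and 0.22 above it for the H483A form, so the second wild-type array lay closest to the controls.

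Glycolysis and hypoxia genes had 8 of 30 members above and 1 below, with a median of 0.14. The higher ones were the glycolytic enzyme genes Hk1, Aldoa, Tpi1, Gapdh and Pgk1, the lactate exporter gene Slc16a3, and the hypoxia-induced Vegfa and Bnip3. Tpi1, an enzyme of the middle of glycolysis, stood at 10.09 and 9.94 (wild-type form) and 9.83 and 10.16 (H483A form) against 9.72 and 9.68 (log2 difference 0.31, 95% CI 0.00 to 0.61). The gaps of Hk1, Slc16a3, Bnip3 and Gapdh were 0.02 or less, and with each array's median subtracted the count on the higher side was 5. The glucose transporter gene Slc2a3 lay on the lower side, at 6.43 and 5.99 (wild-type form) and 6.20 and 6.09 (H483A form) against 6.85 and 6.55 (log2 difference -0.52, 95% CI -0.79 to -0.25). With all probe sets averaged its log2 difference was -0.12, and 7 members stood above and 0 below. That Slc2a3 average takes in probe sets with weak signals. It leaves out a brighter one that can cross-hybridize, which was separated below as well (-0.46).

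Of 27 CDK inhibitor and p53 target genes, 5 stood above both controls and 0 below, with a median of 0.09. Cdkn1a, which encodes the cell cycle inhibitor p21, stood at 9.92 and 9.40 for the wild-type form and 9.69 and 9.54 for the H483A form against 9.35 and 9.0 (log2 difference 0.47, 95% CI 0.19 to 0.74). Mdm2, the ubiquitin ligase that targets p53, stood at 8.44 and 8.28 (wild-type form) and 8.43 and 8.79 (H483A form) against 8.13 and 7.83 (log2 difference 0.51, 95% CI 0.11 to 0.90). Ccng1 stood at 10.93 and 11.01 (wild-type form) and 10.75 and 10.78 (H483A form) against 10.51 and 10.45, the membrane protein gene Perp at 5.25 and 5.53 (wild-type form) and 5.39 and 6.34 (H483A form) against 4.91 and 4.98, and the RNA-binding protein gene Zmat3 had a log2 difference of 0.24 (95% CI -0.07 to 0.56). Without the second empty vector array the log2 difference of Perp was 0.41 instead of 0.68. The median of the list was 0.27 within replicate 1 and 0.11 within replicate 2. DNA replication and mitosis genes showed little separation, with 0 of 36 above and 1 below (Mcm3), and 0 of 27 above and 1 below (Ccna2). Neither Mcm3 nor Ccna2 was separated with all probe sets averaged, and the DNA replication median was -0.14 within replicate 1 and 0.25 within replicate 2.

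Immediate early genes had 3 of 28 members above and 0 below, with a median of 0.22. With all probe sets averaged, 4 stood above and 1 below, and the median was 0.13. Klf4, a zinc finger transcription factor, stood at 7.78 and 8.28 (wild-type form) and 7.72 and 8.06 (H483A form) against 7.26 and 7.54 (log2 difference 0.56, 95% CI 0.29 to 0.83), and a second Klf4 probe set was separated as well (0.47). Dusp6, a phosphatase of ERK kinases, stood at 8.01 and 7.55 (wild-type form) and 7.80 and 7.61 (H483A form) against 7.27 and 7.38, a log2 difference of 0.41 that was 0.19 without the first empty vector array and 0.64 without the second. The metallothionein genes Mt1 and Mt2 were the 2 separated members of 25 antioxidant genes, with log2 differences of 0.62 (95% CI 0.31 to 0.93) and 0.48 (95% CI 0.19 to 0.77). The value of Mt1 was 0.38 with probe sets averaged and that of Mt2 was 0.31 without the first empty vector array. In the Wnt and Notch list 6 of 36 stood above and 1 below, among them the ligand gene Wnt5a (6.15 to 6.62 against 5.92 and 5.95) and the receptor gene Fzd7 (7.23 to 7.80 against 6.92 and 7.12). The list median was 0.02. With all probe sets averaged the count on the higher side was 3, the log2 difference of Wnt5a was 0.21 instead of 0.38 and that of Fzd7 0.25 instead of 0.51, and without the first empty vector array that of Wnt5a was 0.23.

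Sterol and fatty acid synthesis genes had 0 of 23 members above and 3 below, with a median of -0.17. These were Hmgcs1, the isomerase gene Idi1 and the demethylase gene Cyp51, all of the cholesterol pathway. Hmgcs1 stood at 9.83 and 9.37 (wild-type form) and 10.02 and 9.38 (H483A form) against 10.24 and 10.22 (log2 difference -0.58, 95% CI -0.93 to -0.24), and Idi1 at 8.86 and 8.43 (wild-type form) and 8.86 and 8.12 (H483A form) against 9.01 and 8.95 (log2 difference -0.41, 95% CI -0.78 to -0.05). The replicate 2 arrays were the lower ones in both forms for Hmgcs1 and Idi1, and the list median was 0.13 within replicate 1 and -0.39 within replicate 2. Collagen and interstitial matrix genes had 0 of 36 above and 3 below (Tnc, Prelp and Col5a2), with a median of -0.26 that was 0.10 within replicate 1 and -0.60 within replicate 2. With all probe sets averaged the collagen median was -0.17 and the log2 difference of Hmgcs1 was -0.37. Without the second empty vector array it was -0.32 for Hmgcs1 and -0.15 for Idi1, and without the first -0.67 for Idi1. Of all 34 pathway lists, 21 had medians of opposite sign within replicate 1 and replicate 2. Among them were interferon-stimulated genes, with 2 of 35 above and medians of 0.49 and -0.13, and ribosome biogenesis genes, with 0 of 27 separated and medians of -0.30 and 0.37.

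Among ligands and receptors, separated genes lay on both sides, as they did over all genes (4.95% above and 5.15% below). The growth factor and receptor counts lay near those shares. Of 39 growth factor and receptor genes 3 stood above and 2 below: Fgf10, a mesenchymal growth factor, stood at 4.44 to 4.62 against 4.13 and 3.85, and Igf1 at 5.35 to 5.58 against 5.83 and 5.68. Of 26 chemokine and cytokine genes Ppbp stood above, and Lif, Il1b and Tslp stood below. Tslp, an epithelial and stromal cytokine gene named after its values were seen, had the lowest mean difference of all separated genes (-1.34, 95% CI -2.36 to -0.32) but a gap of only 0.01. It stood at 7.16 and 5.07 for the wild-type form and 7.10 and 4.45 for the H483A form against 7.39 and 7.17, so the difference lay almost wholly in the replicate 2 arrays. In the MYC and MAX network, Mycn stood below, and Mlx (5.57 to 5.80 against 5.38 and 5.28) and the MAX partner gene Mxi1 (7.93 to 7.96 against 7.76 and 7.78) above. Of 24 cell death genes 4 stood above and 3 below, among them the pore-forming Gsdme at 8.54 to 9.36 against 9.52 and 9.52 and the necroptosis effector Mlkl at 5.32 to 5.84 against 5.22 and 5.09. Averaging probe sets gave 4 above and 1 below, a log2 difference of -0.20 instead of -0.51 for Gsdme, and 0.22 instead of 0.37 for Mlx. Without the first empty vector array the Gsdme value was -0.26.

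Of the 8 demethylases acting on lysine 4 of histone H3, 0 were separated, and 1 was with probe sets averaged or array medians subtracted. Kdm5b stood at 7.56 and 7.36 (wild-type form) and 7.69 and 7.80 (H483A form) against 7.77 and 7.28, Kdm5c at 7.97 and 7.74 (wild-type form) and 7.73 and 7.5 (H483A form) against 7.53 and 7.80, and Kdm5d at 6.62 and 6.15 (wild-type form) and 6.36 and 5.70 (H483A form) against 6.47 and 6.57, with overlapping groups in each. A weaker Kdm5b probe set (log2 difference 0.21) and a weaker Kdm5d one (0.09) were separated above. A weak Kdm5c probe set was separated below (-0.29), and the remaining probe sets of these genes were not separated. Of 29 members of partner complexes, Rbpj, the DNA-binding factor of Notch signalling, stood above (9.24 to 9.74 against 9.04 and 9.16) and the deacetylase gene Hdac1 below (9.17 to 9.28 against 9.31 and 9.35). Of 23 genes of lysine 4 methyltransferases and their complexes, 1 stood above and 3 below. Among those below were Kdm6a, a lysine 27 demethylase that sits in some of the complexes, at 7.88 to 8.41 against 8.58 and 8.44, and the methyltransferase Setd7 at 8.70 to 8.84 against 8.91 and 8.89. Averaging probe sets gave a log2 difference of -0.21 instead of -0.35 for Kdm6a and of -0.075 instead of -0.15 for Setd7. Oxidative phosphorylation genes had 0 of 32 separated, with a median of 0.06 that was -0.10 within replicate 1 and 0.23 within replicate 2. Mitochondrial ribosome genes had 2 of 33 above (Mrpl37 and Mrpl4), with medians of -0.19 and 0.36, and Hox genes 2 of 33 above (Hoxd9 and Hoxd12). Beside 4.95% above and 5.15% below over all genes, the partner complex, mitochondrial ribosome and Hox counts do not set those lists apart.

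**Figure D5:**
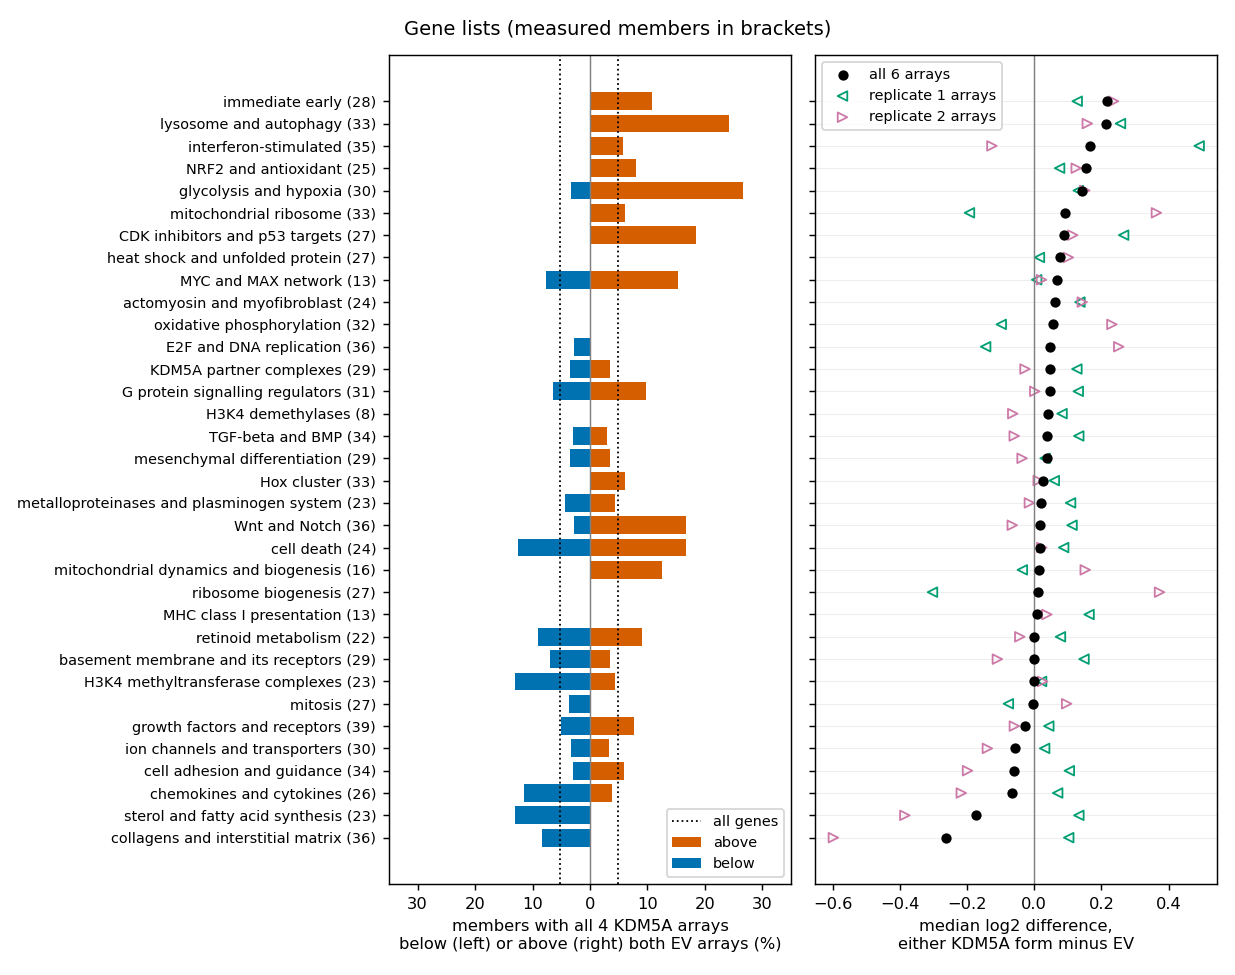
Left: share of the measured members of each list (percent) with all 4 KDM5A arrays below (leftward bars) or above (rightward bars) both empty vector arrays, with dotted lines at the shares over all genes, 5.15% and 4.95%. Right: median log2 difference of the list over all 6 arrays (dots) and within replicate 1 and replicate 2 (triangles), which lie on opposite sides of 0 for the collagen, sterol, interferon and ribosome biogenesis lists and on the same side for the lysosome list.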

How the data were processed

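Total RNA of 6 cultures was hybridised to Affymetrix M430 2.0 mouse arrays. The authors deposited log2 values for 45101 probe sets, for which the submitters' processing notes name RMA. This method subtracts background, sets all arrays to 1 distribution and summarises probes on the log2 scale, so a change in total RNA cannot be seen. The sources used here give no version. Array medians lay between 4.55 and 4.60, and the number of arrays limits the precision.

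GEO's platform annotation gave 34958 probe sets 1 symbol, updated by Entrez ID to RefSeq, 932 several and 9211 none. Each of 18194 genes took its brightest probe set not ending in _x_at where it had one.

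Limma 3.58.1 (R 4.3.3) fitted the replicate number and KDM5A against empty vector (lmFit, eBayes, 3 residual degrees of freedom), two-sided, adjusted by Benjamini-Hochberg over all genes. The fit was tested on simulated data. Named genes were the 5 smallest p per side, the 12 widest gaps per side at or above the median level, up to 2 separated members of each list, the KDM5 family and 7 genes known from an earlier analysis. The 34 pathway lists and 9 marker lists held 1027 genes, 968 measured. Other separated list members and the genes beside the border of the rule were named after their values were seen. Members and lists were chosen with earlier results of these data known. Alternatives covered the block, arrays left out, probe sets, weak genes, centring and prior.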

Additional observations from a re-analysis of the deposited data

Results flagged for a closer look

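Of the named genes, 4 had 1 array far from the other 3 among the 4 KDM5A arrays, each time the second KDM5A-H483A array. It stood at 6.42 for the homeobox gene Hoxd9, 6.41 for Meox1, 8.11 for Mt2 and 12.1 for S100a4. Chance sets about 1 in 20 such groups apart in this way, and 79 were examined.

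Of 10092 probe sets without a single gene symbol, after 51 control probe sets of the array were left out, 341 had all 4 KDM5A arrays above both empty vector arrays and 856 all 4 below. Over all 18194 genes with a symbol the shares were 4.95% above and 5.15% below. In their weakest quartile they were 4.02% and 7.87%, also with more below. The part of signal level in the split of the unnamed probe sets was not tested. At or above the median level of all probe sets, the widest gap above belonged to 1455065_x_at, with a log2 difference of 0.41 from empty vector, and the widest gap below to 1450961_a_at, with -0.33.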

How the results depend on the processing

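Of the 14 alternatives tried, limma called 0 genes under each that kept both empty vector arrays. The smallest adjusted p among these was 0.124, without the second KDM5A-H483A array. Leaving out 1 empty vector array leaves a single control. With the block, each such value given here is then the difference within the other replicate number alone. With both controls kept, the smallest adjusted p depended on the block. With no replicate block it was 1, with 359 genes at an unadjusted p under 0.05 against 540 with the block. The replicate numbers paired the arrays by their values only in part. Differences between replicate 1 and 2 correlated across genes at 0.312 for empty vector and wild type and 0.534 for both KDM5A forms, but at 0.0161 for empty vector and KDM5A-H483A. The block changed no call. The adjusted p of Npnt ranged from 0.124 to 1 over the alternatives and that of Mycn from 0.124 to 1. With all probe sets averaged, the log2 difference of Npnt was 0.63 and that of Mycn -0.28. The count of separated genes was 371 (190 above, 181 below) with a gap of at least 0.1, 804 (542 and 262) at or above the median level and 1034 (359 and 675) below it. The gap and the restriction to weak genes were chosen after seeing the data. Leaving out 1 array relaxes the rule and gave 2852 to 5694 separated genes, 1317 to 2870 above and 1500 to 2824 below. Of 1010 values of named genes under the alternatives, 1004 kept their direction and their side of the threshold, but 50 of the 79 genes moved by over 1.5 times: 35 with probe sets averaged, 33 without 1 array and 0 under the others. A separated gene cannot change direction when 1 array is left out or the block or prior is changed. As no gene was called, the side of the threshold could not change either, so the count of 1004 is little support. The exceptions in direction were in the KDM5 family, which was named whether separated or not. Leaving out 1 array gave -0.14 to 0.29 for Kdm5b, -0.18 to 0.32 for Kdm5c and -0.65 to 0.020 for Kdm5d, and averaging probe sets gave -0.055 for Kdm5c. The cause was not tested.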
